A study of Mus musculus with 12 samples.

Results

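The difference between mouse embryoid bodies given the solvent dimethyl sulfoxide (DMSO) and untreated ones was read from 6 of the 12 Affymetrix arrays of a differentiation series, as the 3 arrays of bodies given DMSO for 12 h against the 3 arrays of untreated day 4 bodies. The arrays were taken by their titles, and all 19938 genes with a usable name were compared. Every array held RNA of a clone of the D3 embryonic stem (ES) cell line. Fetal bovine serum is recorded at 15% for all 12 samples. Embryoid bodies (EBs), which are floating aggregates of differentiating ES cells, formed in dishes without LIF, the cytokine that holds ES cells undifferentiated. The remaining groups, of 3 arrays each, were undifferentiated ES cells and EBs given all-trans retinoic acid (ATRA) at 5 micromolar for 12 h. They entered the fit, where their spread is part of the variance estimate behind each p-value, and are otherwise given only as levels beside the comparison.

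The labels do not give the DMSO concentration. They also do not settle whether the 12 h fell inside the 4 days of culture or came after them, so the solvent and up to 12 h of added development cannot be told apart in any difference given here. The cells were 1 clone of 1 line, and each group held 3 samples that the labels call biological replicates, so the p-values measure the spread between those samples.

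DMSO is the usual carrier for retinoids and other lipid-soluble compounds, and it is also used at higher doses to drive differentiation of several embryonal cell types. In an EB the outer cells become primitive and then visceral endoderm, an absorptive epithelium that secretes apolipoproteins and other carrier proteins, while the inner cells pass from a naive to a primed epiblast state. A subset of the visceral endoderm, the anterior visceral endoderm, secretes antagonists of Nodal, BMP and Wnt and patterns the epiblast beneath it.

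The contrast was small in number and in size. In limma, with Benjamini-Hochberg adjustment over all genes and a threshold of 0.05, 149 of 19938 genes were called (0.747%), of which 107 were higher with DMSO (0.537%) and 42 lower (0.211%). Values below are on the deposited log2 scale, and differences are DMSO minus EB ± SE with n = 3 arrays a group. The called genes differed by between 0.208 and 1.044, with a median size of 0.345, and 18 of them differed by at least 1.5-fold, 16 higher and 2 lower. Apoa1 alone passed 2-fold. The median over all genes was -0.02, and 40.5% of genes had a difference above 0. An unadjusted p under 0.05 was found for 3256 genes (16.3%), and in 22.4% of genes the 6 values separated fully by group (9.5% higher and 12.9% lower with DMSO). All 149 called genes separated in this way, so where a called gene is described below, its separation adds no support to its call. For 98.9% of genes the 95% interval of the difference lay within 1.5-fold in either direction.

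**Figure D1:**
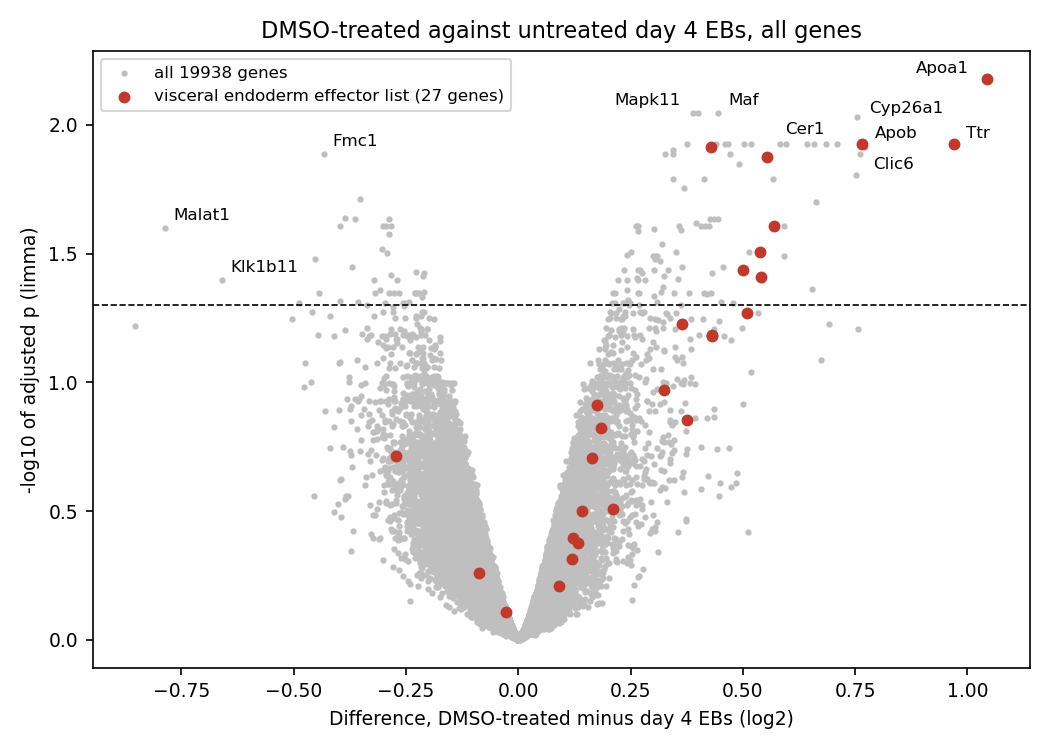
Each point is a gene, with the DMSO minus EB difference (log2) on the x axis and -log10 of limma's adjusted p on the y axis; the dashed line marks 0.05, and red points are the 27 measured genes of the visceral endoderm effector list. Of the red points, 9 lie above the line, all to the right, and Apoa1 at 1.04 is farthest right of all genes.

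How many genes were called depended on the fit and the arrays used. An intensity trend with a robust prior gave 626 calls. Testing only the 9969 genes with a mean value above the median gave 761. With only the 6 compared arrays in the fit, limma called 25 genes, 23 of them among the 149. Without EB replicate 1 or without DMSO replicate 1, limma called 0 genes, although 3080 and 2340 had an unadjusted p under 0.05. Without DMSO replicate 3 it called 2 genes, Apoa1 and Pilra, without EB replicate 2 it called 33, and without EB replicate 3 it called 48. Without DMSO replicate 2 it called 128 genes. That array was the lowest of the 3 DMSO arrays in 81 of the 107 genes called higher (75.7%, against 26.0% of all genes) and the highest of the 3 in 29 of the 42 called lower (69.0%, against 39.4% of all genes), so in most called genes its value was the nearest to those of untreated bodies. The split of directions moved with the scaling: 71.8% of the called genes were higher as deposited, 57.7% after quantile normalization and 87.0% after median centring. Each gene difference described below kept its direction when any of the 6 arrays was left out and under both scalings, except that of Pou5f1, whose sign turned with quantile normalization.

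**Figure D2:**
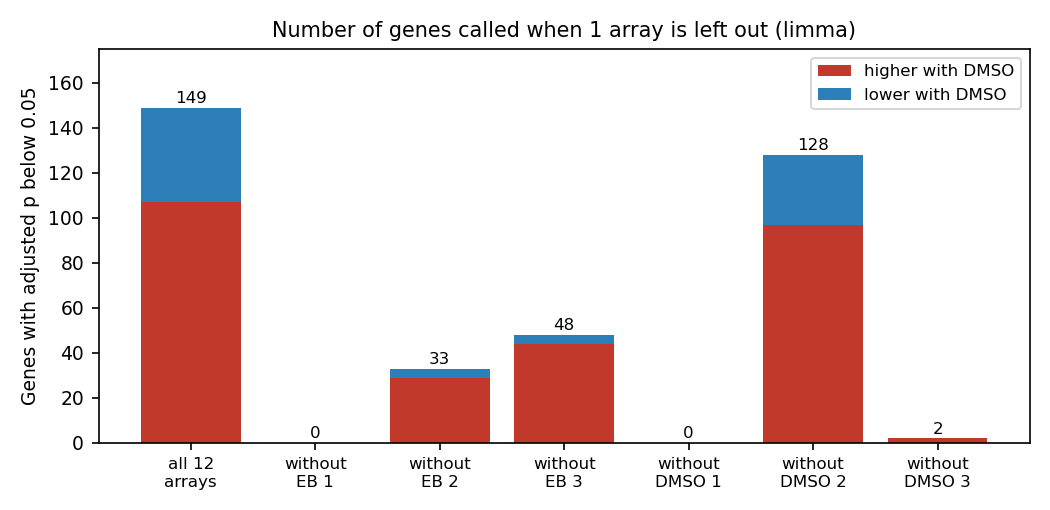
Bars give the number of genes with a limma adjusted p below 0.05, split into higher (red) and lower (blue) with DMSO, for all 12 arrays and with each of the 6 compared arrays left out. The count is 149 with all arrays, 128 without DMSO replicate 2 and 0 without EB replicate 1 or DMSO replicate 1.

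The arrays had similar distributions of values. Their medians ran from 7.76 to 7.86 and their interquartile ranges from 3.50 to 3.65. Replicates of a group correlated at 0.992 to 0.997 over all probe sets, and untreated with DMSO arrays at 0.992 to 0.995. EB replicates 1 and 3 correlated with EB replicate 2 at 0.99482 and 0.99414. With DMSO replicate 2 they correlated more highly, at 0.99509 and 0.9953. With each other they correlated at 0.99557, above both of these values. DMSO replicate 2 correlated most highly with its own group, at 0.99657 with DMSO replicate 1 and 0.99607 with DMSO replicate 3. The interquartile ranges of ES replicate 2 and EB replicate 2 were the lowest, at 3.4996 and 3.5043. The labels give neither a scan date nor a batch.

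Of the 40 gene lists, that with the highest median difference was the visceral endoderm effectors, genes for secreted and absorptive proteins of that epithelium. Of 27 measured genes 9 were called higher and 0 lower in limma, and 18 and 1 had an unadjusted p under 0.05. The list's median difference was 0.36, against -0.02 over all genes, and 24 of the 27 differences were above 0. Their mean level was 7.99 to 8.05 in the ES arrays, 9.16 to 9.29 in untreated bodies, 9.47 to 9.62 with DMSO and 9.33 to 9.44 with ATRA, so the 3 DMSO arrays stood above all 3 untreated ones. The list was drawn up with earlier results of these arrays known, and Lgals2, Ctsh, Pga5, Gkn2 and Lrp2 were put on it because they were already seen to be higher in EBs than in ES cells. In these bulk samples, more endoderm cells and more RNA of these genes in each endoderm cell cannot be told apart.

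Lipoprotein genes were among the largest rises of the whole contrast. Apoa1, the main protein of high-density lipoprotein, read 9.30, 9.48 and 9.38 in untreated bodies and 10.51, 10.22 and 10.55 with DMSO. The groups lay far apart, with DMSO replicate 2 the lowest treated array, and the rise was 1.04 ± 0.10 (2.06-fold, adjusted p = 0.00662). Apob, the scaffold of very-low-density lipoprotein, read 8.06, 8.32 and 8.18 against 9.08, 8.85 and 8.93, a rise of 0.77 ± 0.11 (adjusted p = 0.0119). Mttp, which loads lipid onto that scaffold, read 8.96, 8.98 and 8.94 against 9.55, 9.24 and 9.58. Its untreated arrays were nearly equal and its DMSO arrays spread, and the rise was 0.50 ± 0.09 (adjusted p = 0.0366). Apom, a minor apolipoprotein that carries sphingosine 1-phosphate, rose by 0.54 ± 0.09 from 7.08 ± 0.06 (SD, n = 3), a level only slightly above the 6.81 ± 0.15 of ES cells.

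Ttr, the carrier of thyroxine and, with Rbp4, of retinol, read 9.85, 10.35 and 10.17 in untreated bodies and 11.23, 10.92 and 11.13 with DMSO. The groups did not overlap, although untreated replicate 1 lay well below the other two, and the rise was 0.97 ± 0.12 (1.96-fold, adjusted p = 0.0119). Its level was 6.94 ± 0.11 in ES cells and 10.55 ± 0.16 with ATRA. Rbp4, the plasma carrier of retinol, read 7.48, 7.72 and 7.61 against 8.32, 7.88 and 8.14, a difference of 0.51 ± 0.11 that did not pass (adjusted p = 0.0539). Afp, the fetal serum protein, read 6.97, 7.12 and 6.74 against 7.47, 7.24 and 7.41, and its difference of 0.43 ± 0.10 also did not pass (adjusted p = 0.0654). In ES cells Rbp4 stood at 7.57 ± 0.11 and Afp at 6.66 ± 0.12, and for both the 3 DMSO arrays lay above the 3 untreated ones.

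The proteases and lectins of the list rose from higher starting levels. Ctsh, a lysosomal cysteine protease, rose by 0.55 ± 0.08 from 10.41 ± 0.07, and Pga5, a pepsinogen, by 0.43 ± 0.06 from 11.65 ± 0.03. Lgals2, a galectin of absorptive epithelia, read 10.62, 10.79 and 10.83 against 11.49, 11.14 and 11.30, a rise of 0.57 ± 0.09 (adjusted p = 0.0247). Spink1, a trypsin inhibitor, rose by 0.54 ± 0.10 (adjusted p = 0.0389), and its level of 7.26 ± 0.07 with ATRA was below the 7.71 ± 0.13 of untreated bodies. The uptake machinery was high in every EB array and did not pass the test: the receptor gene Cubn differed by 0.12 ± 0.07 and Lrp2 by 0.13 ± 0.08. For both, DMSO replicate 2 fell inside the range of the untreated arrays, and the 95% intervals ran from -0.03 to 0.27 and from -0.04 to 0.30. Dab2, their adaptor, differed by 0.18 ± 0.06 without passing, and its other probe set by 0.02.

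DMSO replicate 2 was the lowest DMSO array in 9 of the 9 called effector genes, and EB replicate 1 the lowest untreated array in 7 of the 9. The number of effector genes called was 0 without EB replicate 1 or DMSO replicate 1, 6 without EB replicate 2, 5 without EB replicate 3, 11 without DMSO replicate 2 and 1 (Apoa1) without DMSO replicate 3. The list's median stayed between 0.298 and 0.355 over those 6 settings, and 24 of 27 differences were above 0 in each. Whether the array order bears on the rises was not tested.

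**Figure D3:**
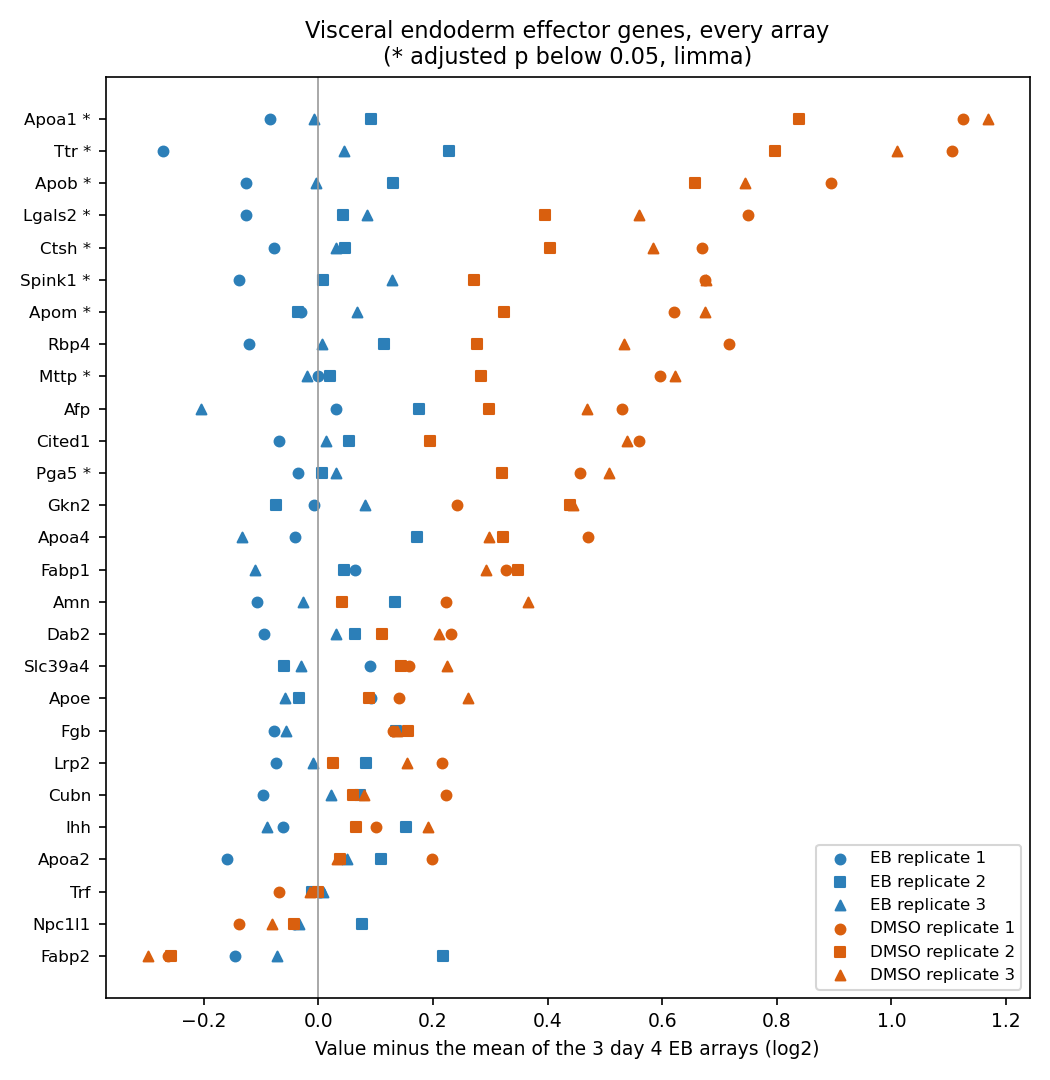
Each row is a visceral endoderm effector gene and each point an array, as its log2 value minus the mean of the 3 untreated arrays; blue is untreated, orange is DMSO, and the marker shape gives the replicate. All 9 genes with a star (adjusted p below 0.05, limma) have their orange points to the right of all blue points, with the square of DMSO replicate 2 leftmost among the orange.

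Among endoderm transcription factors, 2 of 13 measured genes were called higher and 0 lower in limma (6 and 0 at an unadjusted p under 0.05), with a list median of 0.13. Hnf4a, the nuclear receptor that drives apolipoprotein genes in visceral endoderm, read 10.11, 10.33 and 10.26 in untreated bodies and 10.76, 10.53 and 10.72 with DMSO. Its groups did not overlap, and it rose by 0.44 ± 0.07 (1.35-fold, adjusted p = 0.0232), while its ATRA level of 10.25 ± 0.07 was close to the untreated 10.23 ± 0.11. Gata6, which specifies primitive endoderm, rose by 0.25 ± 0.05 (adjusted p = 0.0488), from 11.15 ± 0.04 to 11.40 ± 0.09, and stood at 11.82 ± 0.02 with ATRA. The limma calls of both genes ended without EB replicate 1, EB replicate 3, DMSO replicate 1 or DMSO replicate 3, while their differences stayed between 0.37 and 0.50 and between 0.20 and 0.29 with any of the 6 arrays left out. Gata6 also lost its call without EB replicate 2 and after quantile normalization. Gata4, the partner of Gata6, differed by 0.31 ± 0.07 (adjusted p = 0.0574), Foxa2 by 0.25 ± 0.08 (0.159) and Sox17 by 0.17 ± 0.09 (0.388), none of which passed. Of the 17 parietal endoderm and basement membrane genes, 0 were called in limma and 3 had an unadjusted p under 0.05, and their median difference was 0.04.

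The starts of 3 of these genes were read for short motifs of endoderm factors, in RefSeq windows (build GRCm38.p6) that run from 250 bases before to 50 bases after each gene start. Both strands were searched. The motif of the HNF4 type was spelled CAAAGTCCA. The core of the HNF1 motif, whose factor is a homeodomain protein of endoderm, was spelled GTTAAT. The motif of GATA factors, which bind through zinc fingers, was spelled AGATAA. That of the FOXA factors, which open chromatin in endoderm, was spelled TGTTTAC. Hnf4a is shown because it is the called endoderm factor with the larger rise, Muc13 (a cell-surface mucin described below) because it holds an HNF4 type match and Lgals2 because it is a called effector with 2 kinds of match. The 200 bases before each start are printed 5′ to 3′ on the gene's strand, with matches in capitals, from chr2:163546955-163547154 (plus strand) for Hnf4a, chr16:33794289-33794488 (plus strand) for Muc13 and chr15:78855530-78855729 (minus strand) for Lgals2.
Hnf4a: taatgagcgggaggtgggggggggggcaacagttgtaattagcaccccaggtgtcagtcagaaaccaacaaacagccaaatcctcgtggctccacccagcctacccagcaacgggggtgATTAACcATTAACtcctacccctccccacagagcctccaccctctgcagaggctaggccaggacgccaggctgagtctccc
Muc13: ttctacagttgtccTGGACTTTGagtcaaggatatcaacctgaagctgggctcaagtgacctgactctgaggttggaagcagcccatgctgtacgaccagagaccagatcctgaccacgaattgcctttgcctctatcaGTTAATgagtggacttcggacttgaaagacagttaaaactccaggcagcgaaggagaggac
Lgals2: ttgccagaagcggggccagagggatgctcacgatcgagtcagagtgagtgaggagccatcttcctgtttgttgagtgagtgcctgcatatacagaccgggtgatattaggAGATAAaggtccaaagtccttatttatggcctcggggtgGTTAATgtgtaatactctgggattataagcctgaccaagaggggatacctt
Hnf4a held 2 HNF1 cores on the minus strand, Muc13 an HNF4 type match on the minus strand and an HNF1 core, and Lgals2 a GATA type match and an HNF1 core. Over all 15614 genes with a window, 7.11% held the HNF1 core, against 7 of 21 effector genes with a window (33.3%) and 6 of the 82 called higher (7.32%). Of the 5 effectors called higher with a window, only Lgals2 held the HNF1 core or the GATA type motif. The HNF4 and FOXA type motifs were in 0 of the 5. The HNF4 type motif was in 0.564% of all windows, in 2 of the 82 called higher (Muc13 and Pilra, 2.44%), in 1 of the 32 called lower (3.12%) and in 0 of the 21 effectors. The HNF1 core was in 2 of the 32 called lower (6.25%). The GATA type motif was in 10.8% of all windows, 6.1% of those called higher, 3.12% of those called lower and 3 of the 21 effectors. The FOXA type motif was in 3.54% of all windows, 3.66% of those called higher, 3.12% of those called lower and 3 of the 21 effectors. A match describes these letters only.

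Several of the larger rises outside the effectors were in genes known from the anterior visceral endoderm. Cer1, the secreted antagonist of Nodal and BMP, read 6.70, 6.91 and 6.67 in untreated bodies and 7.54, 7.37 and 7.34 with DMSO. Its groups lay apart, and it rose by 0.66 ± 0.09 (1.58-fold, adjusted p = 0.0119), with an ATRA level of 6.52 ± 0.11 below the untreated 6.76 ± 0.13. Lhx1, a LIM homeobox factor of the same cells and of the node, read 7.84, 8.08 and 7.95 against 8.64, 8.46 and 8.71, a rise of 0.64 ± 0.09 (adjusted p = 0.0119). Hesx1, a homeobox gene for a transcriptional repressor, read 8.09, 8.39 and 8.32 against 9.18, 8.72 and 8.86. Its DMSO arrays were the most spread of these genes, and it rose by 0.65 ± 0.13 (adjusted p = 0.0435). Amot, an actin- and YAP-binding protein gene of that tissue, read 9.84, 9.99 and 9.98 against 10.73, 10.42 and 10.71, a rise of 0.68 ± 0.09 (adjusted p = 0.0119). With ATRA it stood at 9.93 ± 0.12, the untreated level.

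A list of 15 anterior visceral endoderm genes was drawn up after these values were seen. It holds these 4, so its calls are no independent evidence. In limma the 4 were called higher and 0 lower (0.537% and 0.211% of all genes), and 9 and 0 had an unadjusted p under 0.05. The median was 0.25, and differences ran from -0.07 to 0.68. In 10 of the 15 all 3 DMSO arrays lay above the untreated ones (9.5% of all genes). Among the 11 not called were Otx2 at 0.25 ± 0.06 (adjusted p = 0.101) and Eomes at 0.34 ± 0.07 (0.0562). So were the Wnt antagonist Sfrp5 at 0.47 ± 0.11 (0.0683) and Sfrp1 at 0.21 ± 0.04 (0.0539). Each of these had all 3 DMSO arrays above all 3 untreated ones. With ATRA the level of Otx2 was 8.75 ± 0.06, against 10.67 ± 0.12 in untreated bodies. The primitive streak list had 2 of 24 genes called higher (Cer1 and Lhx1) and 0 lower (4 and 1 at an unadjusted p under 0.05), with a median of 0.03, and the Nodal pathway list 1 of 16 (Cer1), with a median of -0.03. The limma calls of Cer1, Lhx1 and Amot ended without EB replicate 1, DMSO replicate 1 or DMSO replicate 3, with differences of 0.58 to 0.78 over the 3 genes and the 6 arrays left out. That of Hesx1 held only without DMSO replicate 2, with differences of 0.52 to 0.75.

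The retinoid list had 1 of 23 genes called higher, Cyp26a1, and 0 lower in limma (4 and 0 at an unadjusted p under 0.05), with a median of 0.03. Cyp26a1, the main enzyme that degrades retinoic acid and a direct target of its receptors, read 8.93, 9.11 and 9.15 in untreated bodies and 9.91, 9.66 and 9.88 with DMSO. The groups lay apart, and it rose by 0.75 ± 0.09 (1.69-fold, adjusted p = 0.0093), from a level already above the 7.84 ± 0.12 of ES cells. With ATRA it stood at 11.58 ± 0.12, above every DMSO array. Other readers of retinoic acid did not pass with DMSO: Stra8 differed by 0.27 ± 0.14 (6.17, 6.50 and 6.37 against 6.85, 6.69 and 6.32, overlapping), where its ATRA level was 10.30 ± 0.08, and Hoxa5 by -0.19 ± 0.07, where its ATRA level was 10.10 ± 0.06 against 8.03 ± 0.14 untreated. Rdh10, which makes retinaldehyde from retinol, differed by 0.26 ± 0.06 (adjusted p = 0.0666). Without EB replicate 1, DMSO replicate 1 or DMSO replicate 3 the Cyp26a1 call ended, and its difference stayed between 0.69 and 0.83.

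The 200 bases before the Cyp26a1 start are shown because they hold a direct repeat of the kind bound by retinoic acid receptors. They lie at chr19:37697608-37697807 on the plus strand (RefSeq, GRCm38.p6), and the capitals mark a match to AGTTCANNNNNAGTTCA read on the minus strand.
Cyp26a1: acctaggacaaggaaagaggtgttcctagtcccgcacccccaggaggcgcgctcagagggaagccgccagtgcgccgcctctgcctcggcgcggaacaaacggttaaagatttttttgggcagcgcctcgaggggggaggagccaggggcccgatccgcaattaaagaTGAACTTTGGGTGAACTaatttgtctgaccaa
The match began 32 bases before the start. Of all 15614 genes with a window, 3 held this motif (0.0192%), namely Cyp26a1, Blvrb and Tnfsf13b, and only Cyp26a1 of these was called.

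**Figure D4:**
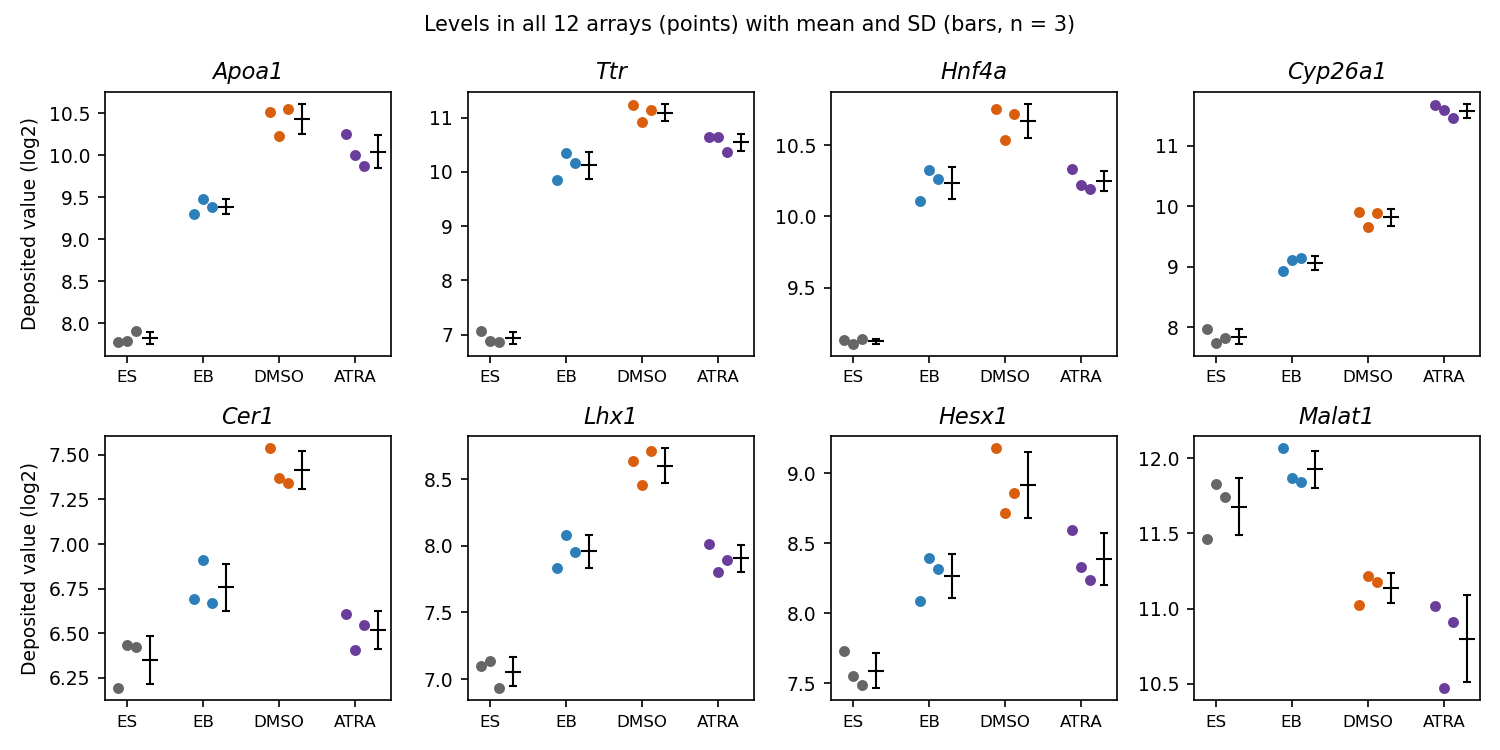
Points are the deposited log2 values of 8 genes in all 12 arrays, by group (ES cells, untreated EBs, DMSO, ATRA), and bars are the mean and SD of 3 arrays; each panel has its own y axis, which does not start at 0. Apoa1, Ttr, Hnf4a, Cer1, Lhx1 and Hesx1 are highest with DMSO, Cyp26a1 is highest with ATRA, and Malat1 is lower in both treated groups than in untreated EBs.

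Genes of epithelial structure moved in both directions. Of 22 cell adhesion genes 3 were called higher and 1 lower in limma (0.537% and 0.211% of all genes), with a median of 0.06. At an unadjusted p under 0.05 there were 9 higher and 3 lower (16.3% of all genes in either direction). All 3 DMSO arrays lay above the untreated ones in 10 genes and below in 6 (9.5% and 12.9% of all genes). Krt18, a keratin of simple epithelia, read 9.55, 9.65 and 9.50 against 9.98, 9.91 and 10.14, a rise of 0.44 ± 0.07 (adjusted p = 0.0232), and its partner Krt8 rose by 0.24 ± 0.05 (0.0477) with all 3 DMSO arrays above the untreated ones. Cldn6, a tight junction claudin, rose by 0.46 ± 0.08 from 12.13 ± 0.11. Tjp1, the scaffold of the same junctions, went the other way: it read 11.52, 11.51 and 11.55 against 11.33, 11.33 and 11.29 and fell by 0.21 on the log2 scale (adjusted p = 0.0446), a call that ended after median centring (0.113). The calls of Krt8 and Tjp1 ended when any of the 6 arrays was left out, with differences of 0.23 to 0.26 and of -0.22 to -0.19. That of Cldn6 held only without DMSO replicate 2 (0.40 to 0.55 over the 6 arrays left out) and that of Krt18 only without EB replicate 2 or DMSO replicate 2 (0.38 to 0.49). Krt8 and Krt18 were also the 2 genes called of the 16 trophoblast genes, where Cdx2, Elf5 and Gata3, which define that lineage, were not called.

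Outside the lists, the largest rises that the naming rule allows were Clic6, Tmprss2 and Slc7a8. Clic6, an intracellular chloride channel family gene, read 9.40, 9.48 and 9.49 against 10.35, 9.98 and 10.32, a rise of 0.76 ± 0.11 (adjusted p = 0.0130). Tmprss2, a transmembrane serine protease, read 8.08, 7.93 and 8.08 against 8.76, 8.61 and 8.97, a rise of 0.75 ± 0.11 (0.0156). Slc7a8, a neutral amino acid exchanger, read 8.80, 8.85 and 8.90 against 9.70, 9.39 and 9.59, a rise of 0.71 ± 0.09 (0.0119). In all 3 genes the lowest DMSO array was replicate 2 and still lay above every untreated array. The mucin Muc13 rose by 0.59 ± 0.11, the secreted protease Prss12 by 0.58 ± 0.08 and Pilra, an inhibitory receptor of myeloid cells, by 0.60 ± 0.08. Pilra was low, at 7.02 ± 0.10 in untreated bodies and 7.62 ± 0.19 with DMSO, and kept its call without DMSO replicate 3. Clic6, Slc7a8 and Prss12 lost theirs without EB replicate 1, DMSO replicate 1 or DMSO replicate 3, Tmprss2 also without EB replicate 2, and Muc13 kept it only without DMSO replicate 2. The differences of these 6 genes with an array left out ran from 0.50 to 0.88.

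A few further called genes were picked after their values were seen. Gpc3, a glypican, rose by 0.51 ± 0.09, from 10.57 to 11.09 in the mean, and Slco2a1, a prostaglandin transporter, by 0.43 ± 0.07. The membrane protease Prss8 rose by 0.40 ± 0.06, the epithelial splicing regulator Esrp1 by 0.35 ± 0.07 and Igfbp2, an insulin-like growth factor binding protein, by 0.36 ± 0.06. Lgals3bp, a secreted glycoprotein, rose by 0.46 ± 0.06 towards, but not to, its ES level of 10.44. Beside Apoa1 and Cyp26a1, an adjusted p under 0.01 was reached only by Acot1, an acyl-CoA thioesterase (0.39 ± 0.05), Maf, a basic leucine zipper factor (0.44 ± 0.05), and Mapk11, a p38 kinase (0.40 ± 0.05). The calls of Acot1, Maf, Mapk11 and Lgals3bp ended without EB replicate 1, DMSO replicate 1 or DMSO replicate 3, those of Slco2a1 and Prss8 also without EB replicate 2, those of Gpc3 and Igfbp2 held only without DMSO replicate 2, and that of Esrp1 ended when any of the 6 arrays was left out.

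Lists of stress responses, which a solvent might be asked about, are given here and in the next paragraph. Over all genes 0.747% were called in limma, and 16.3% had an unadjusted p under 0.05. Each of these lists had a larger share than 16.3% at that unadjusted threshold. Oxidative stress and detoxification had 1 of 20 genes called higher and 0 lower in limma (10 and 0 at an unadjusted p under 0.05), with a median of 0.12 against -0.02 over all genes. Of its differences 17 of 20 were above 0, and in 11 of the 20 all 3 DMSO arrays lay above all 3 untreated ones (9.5% of all genes). The called gene was Gpx2, a glutathione peroxidase of gut epithelium and an NRF2 target, which read 9.28, 9.31 and 9.27 against 9.72, 9.66 and 9.78 and rose by 0.43 ± 0.08 (adjusted p = 0.0377). Gstm3, a glutathione transferase outside the list, rose by 0.44 ± 0.06 (0.0119). Mt1, a metallothionein, differed by 0.33 ± 0.07 without passing (0.0542). The calls of Gpx2 ended when any of the 6 arrays was left out, with differences of 0.40 to 0.46. That of Gstm3 held without EB replicate 2, EB replicate 3 or DMSO replicate 2, with differences of 0.40 to 0.50 over the 6 arrays left out.

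Heat shock genes had 0 of 15 called higher and 1 lower in limma (1 and 3 at an unadjusted p under 0.05), with a median of -0.04. Hsph1, a large chaperone of the HSP110 family, read 11.55, 11.54 and 11.57 against 11.18, 11.35 and 11.27 and fell by 0.28 on the log2 scale (adjusted p = 0.0247). The co-chaperone gene Bag3 differed by 0.29 ± 0.06 in the other direction without passing (0.0614). Of 22 immediate early genes, 2 were called higher and 0 lower in limma (5 and 4 at an unadjusted p under 0.05): Ier3 rose by 0.36 ± 0.06 and Zfp36, which encodes an mRNA-destabilising protein, by 0.42 ± 0.08. The calls of Hsph1, Ier3 and Zfp36 held only without DMSO replicate 2, with differences of -0.33 to -0.24, 0.30 to 0.39 and 0.32 to 0.48 over the arrays left out. That of Hsph1 also ended after median centring. In limma 0 of 23 unfolded protein and integrated stress genes and 0 of 14 osmotic response and water channel genes were called. Likewise 0 of 14 p53 targets and 0 of 26 hypoxia and glycolysis genes were called. In that order 7, 5, 5 and 7 had an unadjusted p under 0.05, and the medians were -0.06, -0.09, -0.06 and 0.07. Differences were above 0 in 6, 4, 5 and 22 of them, against 40.5% of all genes. All 3 DMSO arrays lay above the untreated ones in 3, 2, 1 and 10 of them and below in 7, 4, 4 and 1. Over all genes those shares were 9.5% and 12.9%.

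**Figure D5:**
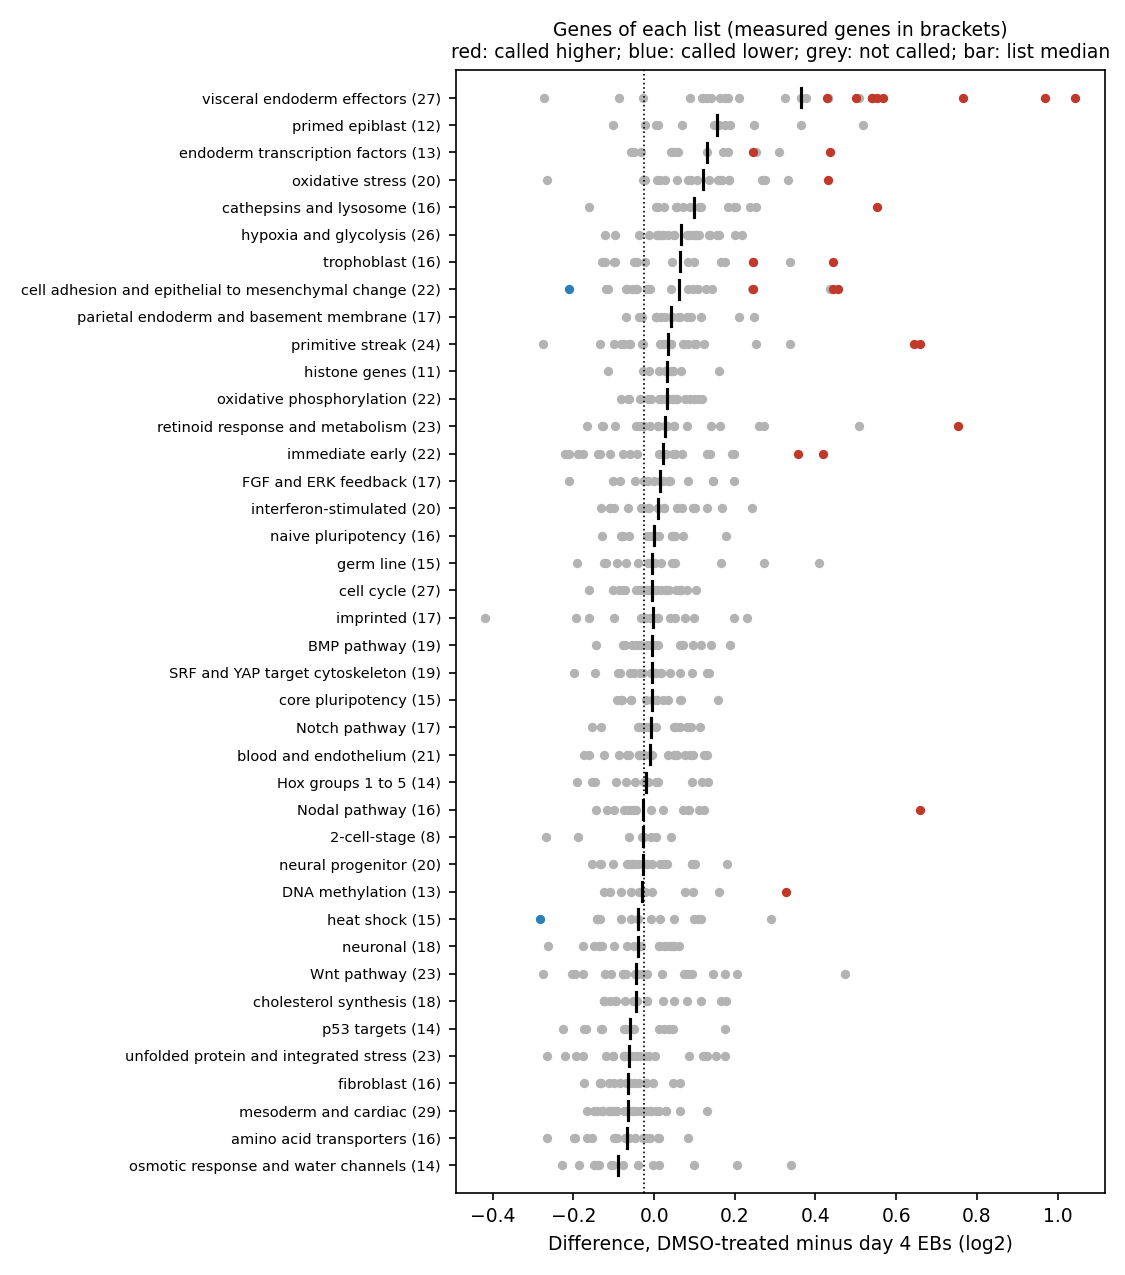
Each row is a gene list with its number of measured genes, each point a gene at its DMSO minus EB difference (log2), red where called higher, blue where called lower and grey where not called; bars are list medians and the dotted line is the median of all genes, -0.02. The visceral endoderm effectors have the highest median, 0.36, followed by the primed epiblast list at 0.155 with no call.

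No listed gene of the epiblast state was called, but differences of the primed epiblast genes were mostly above 0. Pou5f1 read 13.38, 13.37 and 13.38 in untreated bodies and 13.36, 13.40 and 13.39 with DMSO, a difference of 0.01 ± 0.04 with a 95% interval of -0.08 to 0.09. Nanog read 13.39, 13.30 and 13.39 against 13.26, 13.32 and 13.32, a difference of -0.06 ± 0.05 with an interval of -0.16 to 0.05. The groups overlapped for both, and both lie near the top of the array's range, where differences can be compressed. In limma 0 of the 15 core and 0 of the 16 naive pluripotency genes were called, and 1 and 2 had an unadjusted p under 0.05. Of 12 primed epiblast genes 0 were called, and 7 had an unadjusted p under 0.05, all higher with DMSO (16.3% of all genes in either direction). Their median was 0.155, and 10 had a difference above 0 (40.5% of all genes). In 6 of the 12 all 3 DMSO arrays lay above the untreated ones, and in 0 below (9.5% and 12.9% of all genes). Fgf5, the marker of that state, read 8.77, 8.94 and 8.86 against 9.41, 9.24 and 9.48, which did not overlap, and its difference of 0.52 ± 0.13 did not pass (adjusted p = 0.0912). Zic2 differed by 0.36 ± 0.09 (0.0795) and Dnmt3b by 0.16 ± 0.05 (0.180).

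Dnmt3l, the inactive partner of the de novo DNA methyltransferases, was the 1 gene called of 13 DNA methylation genes. It read 11.46, 11.40 and 11.47 in untreated bodies and 11.75, 11.72 and 11.84 with DMSO, and rose by 0.33 ± 0.05 (adjusted p = 0.0130). It stood at 10.84 ± 0.03 in ES cells and 10.65 ± 0.05 with ATRA, below both EB groups. The call held only without EB replicate 3 or DMSO replicate 2, with differences of 0.29 to 0.35.

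The 42 genes called lower were fewer and moved less, with a median difference of -0.29 against 0.37 for those called higher. Malat1, an abundant nuclear long non-coding RNA, read 12.07, 11.87 and 11.84 in untreated bodies and 11.03, 11.22 and 11.18 with DMSO. The groups lay apart, and it fell by 0.79 on the log2 scale (SE 0.13, adjusted p = 0.0252), with an ATRA level of 10.80 ± 0.29 and an ES level of 11.68 ± 0.19. Its call held only without DMSO replicate 2, with differences of -0.83 to -0.72. Klk1b11, a kallikrein of a family of near-identical genes whose signals an array may mix, fell by 0.66 on the log2 scale at a low level (6.32 ± 0.07 untreated), and its call ended when any of the 6 arrays was left out, with differences of -0.70 to -0.62. Fmc1, an assembly factor of mitochondrial ATP synthase, read 10.21, 10.13 and 10.19 against 9.65, 9.74 and 9.85 and fell by 0.43 on the log2 scale (0.0130). It kept its call without EB replicate 2, EB replicate 3 or DMSO replicate 2.

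Smaller falls were spread over genes of unlike function. Usp26, a deubiquitinase, fell by 0.40 on the log2 scale, Ankrd45 by 0.40, the phospholipase Pla2g4c by 0.37, the sarcoglycan Sgcb by 0.36 and the adhesion receptor Adgrd1 by 0.36. Mdn1, which releases maturing ribosomal subunits, fell by 0.32, the RNA-binding protein gene Taf15 by 0.31 and Aspm, a spindle pole protein gene, by 0.30. In all 8 the 3 DMSO arrays lay below the 3 untreated ones, which the naming rule requires. With median centring Usp26 (adjusted p = 0.0569), Mdn1 (0.0569) and Taf15 (0.102) were not called, and Usp26 was not called after quantile normalization either. The calls of Usp26, Adgrd1 and Taf15 ended when any of the 6 arrays was left out, those of Pla2g4c, Sgcb, Mdn1 and Aspm held only without DMSO replicate 2, and that of Ankrd45 only without EB replicate 2 or DMSO replicate 2, with differences of -0.47 to -0.25 over the 8 genes.

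Called falls included genes of double-strand break repair, and a list of them was drawn up after this was seen. Of its 16 measured genes 3 were called lower and 1 higher in limma (0.211% and 0.537% of all genes), with a median of -0.10. The list holds the falls that prompted it, so its calls are no independent evidence. At an unadjusted p under 0.05 there were 8 lower and 1 higher (16.3% of all genes in either direction). All 3 DMSO arrays lay below the untreated ones in 9 genes and above in 1 (12.9% and 9.5% of all genes). Rad50, of the complex that binds broken ends, read 10.66, 10.82 and 10.79 against 10.43, 10.51 and 10.51 and fell by 0.27 on the log2 scale (adjusted p = 0.0402). Polq, the polymerase of end joining through microhomology, fell by 0.27 and Lig4, the ligase of non-homologous end joining, by 0.21. The nuclease gene Mus81 rose by 0.26 ± 0.05. The 3 falls lost their calls after median centring (adjusted p of 0.0569 for Rad50, 0.118 for Polq and 0.134 for Lig4), and the calls of Rad50, Lig4 and Mus81 ended when any of the 6 arrays was left out, while that of Polq held only without DMSO replicate 2. Over the arrays left out their differences ran from -0.32 to -0.24 for Rad50, -0.30 to -0.24 for Polq, -0.22 to -0.20 for Lig4 and 0.24 to 0.28 for Mus81.

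Genes called lower spanned more of the genome. The median span from the first to the last base of protein-coding genes was 50.5 kb for the 36 called lower with a span, 16.3 kb for the 102 called higher and 19.2 kb for all 18565. Their median level in untreated bodies was 10.24, against 9.57 for genes called higher and 8.33 for all genes. Whether length or level bears on the falls was not tested. Of small RNA genes, picked after their values were seen, the microRNA genes Mir680-1, Mir680-2 and Mir146 were called higher, by 0.57, 0.59 and 0.49, and Mir98 lower (-0.44). Of the 297 microRNA genes tested 3 were called higher and 1 lower in limma. Of the 54 small nucleolar RNA genes 1 was called higher and 2 lower, beside 0.537% and 0.211% of all genes. Mir146 was read at 3.45 ± 0.04 in untreated bodies and 3.94 ± 0.06 with DMSO, far below the median of every array (7.76 to 7.86), and with no detection call used here its signal may not be above background. Among small nucleolar and Cajal body RNAs, Snord118 was called higher (0.66 ± 0.10), and Snora16a (-0.45 ± 0.08), Snord104 (-0.34 ± 0.07) and Scarna17 (-0.49 ± 0.10) lower, and these probe sets may also read host transcripts. Of these 8 calls 0 held without EB replicate 1 or DMSO replicate 1, and those of Snord104 and Scarna17 ended when any of the 6 arrays was left out.

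Apart from the keratins of the trophoblast list, markers of other cell types gave no call in limma. These lists were mesoderm and cardiac (0 of 29 called, median -0.07), blood and endothelium (0 of 21, -0.01), neural progenitor (0 of 20, -0.03), neuronal (0 of 18, -0.04), fibroblast (0 of 16, -0.06), germ line (0 of 15, 0.00) and 2-cell-stage genes (0 of 8, -0.03). At an unadjusted p under 0.05 they had 3, 0, 2, 1, 1, 1 and 1 genes in that order. The mean level of the fibroblast list was 8.59 to 8.67 in untreated bodies and 8.55 to 8.60 with DMSO, and that of the blood and endothelium list 7.79 to 7.91 and 7.82 to 7.86, so the groups overlapped in both. That of the neuronal list was 7.59 to 7.64 and 7.54 to 7.58, lower with DMSO in every array. Differences were above 0 in 6 of 29 mesoderm and cardiac genes and 2 of 16 fibroblast genes, against 40.5% of all genes, and in 7 and 3 of them all 3 DMSO arrays lay below the untreated ones (12.9% of all genes). Whether these lower levels bear on the genes called lower was not tested. Of the signalling lists, Nodal had the call of Cer1 given above, and 4 others gave none in limma, with 1 of 19 BMP, 8 of 23 Wnt, 4 of 17 FGF and ERK feedback and 1 of 17 Notch pathway genes at an unadjusted p under 0.05. Of 17 imprinted genes 0 were called and 4 had an unadjusted p under 0.05, with the long non-coding RNA Rian at -0.42 ± 0.09 and an adjusted p of 0.0555.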

How the data were processed

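Total RNA of 12 samples was hybridised to Affymetrix arrays; 300 ng of column-purified RNA was made into biotinylated cDNA, per the labels' protocols. The authors deposited log2 values for 35556 probe sets an array. The log base is inferred from the range of values, while background correction, normalization and summarization were not given in the sources used here. Such a table hides changes of total RNA per cell, and the number of arrays limits the precision.

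Through the platform annotation 21789 probe sets carried 1 symbol, 1621 carried several and 12146 no entry; 21698 gene identifiers were found in a RefSeq table (GRCm38.p6), which changed 0 symbols. A gene took its probe set of highest mean value (12 arrays), which left 19938 genes with no filter on low values. Of 732 genes on the 40 lists, 57 were not analysed here, T among them.

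The fit was lmFit, contrasts and eBayes of limma 3.58.1 in R 4.3.3, on group means of all 12 arrays with 8 residual and 3.93 prior degrees of freedom; tests were two-sided and adjusted over genes by Benjamini-Hochberg, at 0.05. The code was tested on simulated data. The comparison, lists and naming rule were chosen with earlier results of these data known. The rule allows 15 rises and 15 falls, by size, of called genes whose groups do not overlap (no predicted genes, small RNAs, or sensory or antigen receptor families); 4 called members a list by adjusted p, or 2 by size where it has none; and check genes. Genes outside the rule are list members or were picked after their values were seen, as are the anterior visceral endoderm and DNA double-strand break repair lists. No list was tested as a set. Alternatives changed the scaling (quantile, median), the genes tested (mean value above the 25th percentile or the median, averaged or all probe sets), the variance model (trend with robust prior, array weights), the arrays (6 only, each left out, ES replicate 2 with EB replicate 2 left out), the replicate number as a block, and the threshold (adjusted p 0.01, 1.5-fold).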

Additional observations from a re-analysis of the deposited data

Results flagged for a closer look

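Probe sets that the annotation gives no symbol or several symbols were left out of the comparison. Fitted with all 35556 probe sets in limma, 300 of these 13767 passed an adjusted p of 0.05 between DMSO-treated and untreated bodies, 259 higher and 41 lower. That is 2.18% of them, against 0.808% of the probe sets with 1 symbol in the same fit. Their median difference was 0.00 on the log2 scale. They stand out because they carry a signal in data that the comparison by gene does not use; what they measure is not named here, and why their share is higher was not tested.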

How the results depend on the processing

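The comparison gave 149 called genes (107 higher, 42 lower), 23 of them list members, and 43 of the genes that the naming rule allows. Quantile normalization gave 253 (107 lower) and median centring 17 lower. Keeping genes above the 25th percentile of mean value gave 365 (228 higher, 137 lower, 42 list members), and above the median 761 (434, 327 and 61), over fewer genes tested. All probe sets gave 476 (380 higher, 96 lower). An intensity trend with a robust prior gave 626 (378 higher, 248 lower, 64 list members). The 6 arrays alone gave 25 (23 higher, 2 lower, 8 list members, 15 named genes), and without ES replicate 2 and EB replicate 2 there were 27 (24, 3, 10 and 15). An adjusted p of 0.01 left 5 genes, all higher, with 0 lower and 2 list members, and a limit of 1.5-fold left 18 (16 higher, 2 lower, 6 list members). Leaving out each of the 6 arrays in turn gave 0 to 128 called, 0 to 97 higher, 0 to 31 lower, 0 to 24 list members and 0 to 33 named genes. Of the genes whose differences the report gives, Pou5f1 alone reversed, to -0.0495 (adjusted p = 0.546) after quantile normalization. Of the further check genes, which were not called, Sox2 (-0.0059) ran from -0.055 to 0.0215 and Rarb (-0.0455) from -0.154 to 0.011 with an array left out, so their signs turned. The cause of these shifts was not tested, beyond the fewer genes or samples that a setting uses by construction.

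Whether the replicate numbers pair the samples is not settled here. Deviations from the group means of same-numbered EB and DMSO arrays correlated at -0.126, 0.0365 and 0.0245. Those of arrays with other numbers correlated at -0.1352 to 0.1372. So few arrays cannot decide the question. With the replicate number as a block, 62 genes were called over 12 arrays (48 higher, 14 lower, 13 list members, 23 named genes). Over 6 arrays 24 were called (20, 4, 7 and 13).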
